A study of Mus musculus with 4 samples.

Results

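The transcriptome described here is that of 1 library, labelled mock, out of 4 libraries in the series. The library was made from cardiomyocytes of CD1 mice at postnatal day 1, seeded on Primaria culture dishes and mock transfected, and cells were collected after 72 h. The other 3 libraries came from the same kind of cells given a microRNA mimic at 50 nM with Lipofectamine RNAimax, namely hsa-miR-199a-3p, cel-miR-67 and, in the last, hsa-miR-590-3p. They are not compared here. What the mock cells received in place of a mimic is not detailed in the labels. The labels name neither the number of animals behind the culture nor a step that removed other heart cells. With 1 library there was no replicate and no test, so intervals are exact Poisson or binomial 95% intervals that cover counting error only, and reads amplified by PCR are not independent molecules.

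The heart of a newborn mouse is built of cardiomyocytes that beat, together with fibroblasts, endothelial cells, epicardial cells, pericytes and resident macrophages. Around birth cardiomyocytes exchange fetal for adult isoforms of contractile and metabolic proteins, change from glucose and lactate towards fatty acids as fuel, and within days largely stop dividing. Cells in culture can keep or regain features of the fetal heart, which is why both members of such isoform pairs were measured here.

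The library held 31638930 reads on RefSeq transcript records, of which 67.6% were placed uniquely and 0.812% lay on ribosomal RNA records. Levels are RPKM, reads scaled to the length of the transcript and to the depth of the library, summed over the records that carry the same gene symbol. Of 27207 genes, 45.3% reached 1 RPKM, 22.4% reached 10, 2.44% reached 100 and 0.125%, or 34 genes, reached 1000, while 28.8% had 0 reads. The median over all genes was 0.47 RPKM. Counts of list members given below are to be read against these shares of all genes. By read number 680 genes held 50% of the reads, and the 10 with the most reads held 9.51%.

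Muscle genes led the order of levels. Actc1, cardiac alpha-actin, was the most abundant named gene with 7109.8 RPKM (interval 7085 to 7135) on 312676 reads. It was followed by Tnnt2, cardiac troponin T, with 6398 RPKM, by Myl2, the ventricular regulatory myosin light chain, with 5768 RPKM, and by Tpm1, alpha-tropomyosin, with 4147 RPKM. Myh6, the alpha-myosin heavy chain, took the most reads of any gene, 614924, and stood at 3207 RPKM because its transcript is long. Tnnc1, cardiac troponin C, had 2995 RPKM, Ankrd1, a stress-responsive ankyrin repeat protein of the sarcomere, 2627 RPKM, Nppa, atrial natriuretic peptide, 2282 RPKM, and Myl3, the ventricular essential light chain, 2241 RPKM. Atp2a2, the calcium pump of the sarcoplasmic reticulum, stood at 1686 RPKM and Tnni3, cardiac troponin I, at 1402 RPKM.

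Other genes among the 25 highest were Eef1a1, a translation elongation factor (3916 RPKM), Atp5b, the beta subunit of ATP synthase (2017 RPKM), Cst3, cystatin C (1562 RPKM), Sparc, a matricellular protein (1512 RPKM), Acta2, smooth muscle alpha-actin (1454 RPKM), Actb, beta-actin (1225 RPKM), and Slc25a4, the mitochondrial ADP/ATP exchanger (1188 RPKM). Gapdh (2444 RPKM), Ppia (1375 RPKM) and Rpl41 (1242 RPKM) are uncertain, because 2.44%, 5.17% and 46.8% of their reads were placed uniquely. The highest entry of all was LOC100504272, an unnamed gene model with 16528 RPKM on 3 records and 10 uniquely placed reads. Gm4076, with 2957 RPKM on 2 records, and LOC100503946, with 3454 RPKM on 7 records, are gene models without a descriptive name as well. Together the 25 highest genes held 18.4% of the summed RPKM.

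**Figure D1:**
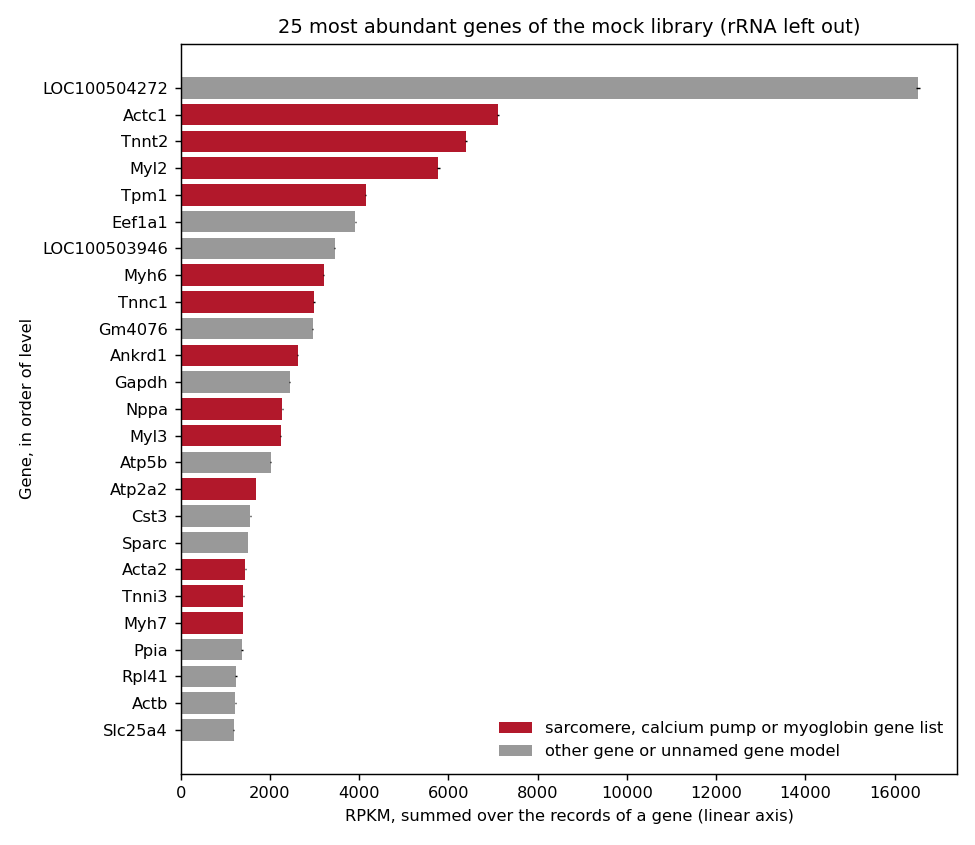
Levels of the 25 most abundant genes of the mock library, in RPKM on a linear axis, with 95% counting intervals as thin lines at the bar ends. Red bars are genes of the lists of sarcomere and cardiac muscle genes, with Nppa, Acta2 and the calcium pump Atp2a2 among them, and grey bars all others; after the gene model LOC100504272 the highest bars are Actc1, Tnnt2, Myl2 and Tpm1.

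Sequence upstream of muscle genes was examined because the named genes with the highest levels were of this kind. RefSeq promoter windows on GRCm38.p6, from 250 bases before to 50 bases after the annotated start, were found for 23 of the 24 cardiac muscle marker genes, 30 windows in all. A CArG box, the binding motif of serum response factor, was present on either strand in 5 of these 30 windows (16.7%), against 1.63% of all 32851 windows of that length. A MEF2 box, the motif of the MEF2 factors, was present in 3 of 30 (10%), against 0.557%. The fibroblast list had 13 windows of 12 genes and the epicardial list 17 windows of 14 genes, and neither motif occurred in them. At the rates of all windows, lists this small would most often hold none, so this absence does not set the cardiac list apart. The letters TATAAA were found in 20.0% of the cardiac windows and 13.6% of all, and GGGCGG, a GC box, in 10% and 35.7%. The boxes were in windows of 7 genes, 4 with a CArG box and 3 with a MEF2 box. Such matches describe these letters in these windows and do not show binding. The windows of 4 of the genes are shown, from 5′ to 3′ on the strand of the gene, to give the motifs in their context: Actc1 (chr2:114052826-114053125, minus strand), Myl3 (chr9:110763428-110763727, plus strand), Mybpc3 (chr2:91117894-91118193, plus strand) and Myoz2 (chr3:123034938-123035237, minus strand). Capitals mark the CArG box in the first pair and the MEF2 box in the last pair, and neither overlaps any of the other motifs searched, which were TATAAA, the CAAT box CCAAT, the GC box GGGCGG and the GATA motif AGATAA, on both strands.
Actc1: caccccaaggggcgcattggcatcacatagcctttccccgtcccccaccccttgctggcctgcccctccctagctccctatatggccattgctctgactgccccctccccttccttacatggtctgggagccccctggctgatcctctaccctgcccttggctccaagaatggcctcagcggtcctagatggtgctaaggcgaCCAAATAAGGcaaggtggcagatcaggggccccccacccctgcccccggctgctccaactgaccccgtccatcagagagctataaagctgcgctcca
Myl3: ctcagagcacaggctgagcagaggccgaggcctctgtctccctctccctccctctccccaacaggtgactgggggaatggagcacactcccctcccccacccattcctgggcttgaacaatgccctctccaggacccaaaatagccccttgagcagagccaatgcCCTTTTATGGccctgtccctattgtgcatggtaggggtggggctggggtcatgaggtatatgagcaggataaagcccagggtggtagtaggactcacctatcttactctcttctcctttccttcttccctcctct
Mybpc3: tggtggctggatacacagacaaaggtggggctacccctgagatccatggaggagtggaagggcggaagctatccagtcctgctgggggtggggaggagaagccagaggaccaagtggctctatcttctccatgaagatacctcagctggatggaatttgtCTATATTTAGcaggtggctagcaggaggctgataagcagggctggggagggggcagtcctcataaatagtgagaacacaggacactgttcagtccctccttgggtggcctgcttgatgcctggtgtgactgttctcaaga
Myoz2: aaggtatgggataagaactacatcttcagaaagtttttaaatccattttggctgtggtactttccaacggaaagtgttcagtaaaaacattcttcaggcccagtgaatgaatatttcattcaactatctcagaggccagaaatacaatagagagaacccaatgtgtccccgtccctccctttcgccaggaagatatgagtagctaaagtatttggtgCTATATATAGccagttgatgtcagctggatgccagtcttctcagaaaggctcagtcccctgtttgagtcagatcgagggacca

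These boxes lay in front of genes at very different levels. In Actc1 the CArG box spans bases -47 to -38 from the annotated start, and in Myl3 bases -85 to -76. In Mybpc3, cardiac myosin-binding protein C, with 954.5 RPKM, the MEF2 box spans -90 to -81, and in Myoz2, a Z-disc protein that binds calcineurin, with 265.1 RPKM, it spans -33 to -24. Ttn, with a MEF2 box at -166 to -157, stood at 31.9 RPKM. Over all measured genes, GGGCGG was found in 26% of the windows of genes below 1 RPKM, in 60.6% between 1 and 10 RPKM, in 67.0% between 10 and 100, in 63.4% between 100 and 1000 and in 27.6% of the 29 windows of genes at 1000 RPKM or above. TATAAA was found in 18.9%, 6.78%, 6.87%, 10.7% and 20.7% of the windows in the same classes, most often at the lowest and the highest levels.

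Transcripts of cardiac muscle, the labelled cell type, were measured with 24 markers. The list was chosen with earlier results of these data known, so it is no independent check of the label. All 24 reached 1 RPKM, 22 reached 100 RPKM and 10 reached 1000 RPKM, and their median was 677.7 RPKM. Summed over the list, they made 39158 RPKM, 8.80% of the summed RPKM of all genes and 7.44% of the reads, and 25667 RPKM with uniquely placed reads only. Nppb, B-type natriuretic peptide, stood at 371.8 RPKM, Ckm, muscle creatine kinase, at 433.5 RPKM, and Nkx2-5, a transcription factor of the cardiac lineage, at 71.5 RPKM. The lowest member was Ttn, titin, with 31.9 RPKM on 93577 reads, over records of 101674 and 81931 bases. In this bulk library fewer cells of a type and less RNA per cell cannot be told apart, so the levels of markers that follow are levels of transcripts and not shares of cells.

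Fibroblast transcripts were present at a lower level than those of muscle. Of 20 markers 19 reached 1 RPKM and 8 reached 100 RPKM, with a median of 66.8 RPKM and a sum of 2960.2 RPKM, 0.665% of the summed RPKM, or 1895 RPKM without Col1a1. The chains of type I collagen were highest, Col1a1 with 1065 RPKM (interval 1060.0 to 1071) and Col1a2 with 596 RPKM, and Col3a1, of type III collagen, had 229.2 RPKM. Pcolce, an enhancer of procollagen processing, had 201.1 RPKM, Fbln2, fibulin-2, 164.4 RPKM, Postn, periostin, 132.6 RPKM, Thy1 115.1 RPKM and Lox, the enzyme that crosslinks collagen, 107 RPKM. Tcf21, a transcription factor of cardiac fibroblasts and their epicardial precursors, had 28.4 RPKM (26.7 to 30.1), and Pdgfra, the PDGF receptor of fibroblasts, 15.0 RPKM. Lum, a proteoglycan of interstitial matrix, stood lower at 3.91 RPKM, and Fap, a protease of activated fibroblasts, had 11 reads and 0.13 RPKM.

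Smooth muscle and pericyte transcripts were uneven. Acta2, Tagln, an actin-binding protein of smooth muscle, with 666.1 RPKM, and Des, desmin, with 651 RPKM, made up most of the list sum of 2999 RPKM, which was 1545 RPKM without Acta2. Immature cardiomyocytes or activated fibroblasts also make these transcripts. Myh11, the smooth muscle myosin heavy chain and the most restricted marker of the list, stood at 4.45 RPKM, Cnn1, calponin, at 27.8 RPKM, Pdgfrb, the PDGF receptor of mural cells, at 33.4 RPKM, and Rgs5, a pericyte gene, at 1.26 RPKM (0.986 to 1.59). Kcnj8, a potassium channel subunit of pericytes, had 17 reads and 0.25 RPKM. The list median was 28.0 RPKM, the level of Abcc9, named below with the ATP-sensitive potassium channel. Myocd, counted below among cardiac transcription factors, is also in this list, so the median is not a level of restricted markers.

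Endothelial transcripts were low. Of 21 markers 14 reached 1 RPKM, 6 reached 10 RPKM and 0 reached 100 RPKM, and the median was 3.11 RPKM. Over all genes 45.3%, 22.4% and 2.44% reached these levels. Eng, endoglin, was highest with 68.7 RPKM, followed by Emcn, endomucin, with 45.6 RPKM and by Cdh5, VE-cadherin, with 17.7 RPKM. Plvap, a protein of endothelial fenestrae, had 13.1 RPKM, Pecam1, the adhesion molecule CD31, 12.8 RPKM (12.1 to 13.5), and Flt1, a VEGF receptor, 8.94 RPKM. Kdr, the main signalling receptor for VEGF, stood much lower at 0.76 RPKM (0.635 to 0.902), beside Vwf, von Willebrand factor, at 0.80 RPKM and Cldn5, a tight junction protein, at 0.11 RPKM. Thus members of the same list were spread from 0.05 RPKM for Lyve1, a lymphatic marker, to the level of Eng. Of 7 endocardial markers, Edn1, endothelin-1, was highest with 18.0 RPKM, Nfatc1, a factor of heart valve formation, had 4.48 RPKM, Npr3, the clearance receptor for natriuretic peptides, 2.87 RPKM, and Irx6 had 0 reads, which allows up to 0.0398 RPKM.

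Epicardial and mesothelial transcripts were low but present for every marker measured. All 18 markers reached 1 RPKM, 12 reached 10 RPKM, and the median was 17.7 RPKM, with a sum of 325.5 RPKM. Upk1b, a uroplakin of mesothelium, had 52.3 RPKM (50.5 to 54.3), Msln, mesothelin, 43.1 RPKM, and Upk3b, another uroplakin, 28.0 RPKM. The retinoic acid enzymes Aldh1a1 and Aldh1a2 had 31.6 and 17.5 RPKM, the simple-epithelial keratins Krt18 and Krt8 23.1 and 18.3 RPKM, and Lrrn4, a mesothelial membrane protein, 19 RPKM. Sema3d, a guidance molecule of the proepicardium, had 20.1 RPKM, Tbx18, a transcription factor of the epicardium, 17.8 RPKM, and Wt1, the Wilms tumour factor that defines the layer, 6.41 RPKM (5.92 to 6.93). Muc16, the lowest member, had 1.52 RPKM. C3 (7.55 RPKM) is uncertain, with 9.76% of reads placed uniquely.

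Most markers of blood cells were below 1 RPKM, with Lyz2, Lcp1, Ctss and Cd68 among those above. Of 21 macrophage and monocyte markers 4 reached 1 RPKM, and their sum was 24.8 RPKM, or 14.3 RPKM without Lyz2. Lyz2, lysozyme of myeloid cells, led with 349 reads and 10.4 RPKM (9.37 to 11.6), Ctss, cathepsin S, had 3.43 RPKM and Cd68 2.04 RPKM. Csf1r, the receptor on which macrophages depend, had 72 reads and 0.59 RPKM (0.462 to 0.743), Adgre1, listed in the files as Emr1, had 0.34 RPKM, and Mrc1, a marker of resident macrophages, 0.07 RPKM. Ptprc, the leukocyte antigen CD45, had 17 reads and 0.10 RPKM (0.058 to 0.16). Lcp1, L-plastin, was the highest of 8 pan-leukocyte markers with 5.56 RPKM. None of 15 lymphocyte markers reached 1 RPKM and 9 had 0 reads, among them Cd3e, Cd3g, Cd2, Cd4, Cd79b, Ms4a1, Klrd1 and Nkg7, with an upper limit of 0.066 RPKM for Cd3e, of the T cell receptor complex. Of 12 granulocyte and mast cell markers, Cxcr2, a chemokine receptor, had 1.55 RPKM and 9 had 0 reads. Among the latter were the neutrophil genes S100a8, S100a9 and Mpo and the mast cell genes Cma1 and Cpa3.

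The erythroid list had no member at 1 RPKM, a sum of 0.94 RPKM, and 0 reads for the adult beta-globin genes Hbb-b1 and Hbb-b2. Among 14 neural and Schwann cell markers, Ncam1, an adhesion molecule also made by immature heart muscle, had 48.1 RPKM and Tubb3, a beta-tubulin, 11.5 RPKM. Mbp, myelin basic protein, had 4.68 RPKM on 672 reads, and Dbh, dopamine beta-hydroxylase of catecholamine synthesis, 3.20 RPKM on 231 reads. Sox10, the factor of Schwann cells, and Th, the first enzyme of catecholamine synthesis, had 0 reads, with upper limits of 0.035 and 0.054 RPKM. For scale, 20 markers of organs other than the heart were counted in the same way. In that list 1 gene reached 1 RPKM and 11 had 0 reads, among them Alb, albumin (upper limit 0.0464 RPKM), Ins2 and Sftpc. The exception was Slc17a7, a vesicular glutamate transporter, with 529 reads and 5.55 RPKM (5.09 to 6.04). The next highest was Cela1 at 0.20 RPKM.

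**Figure D2:**
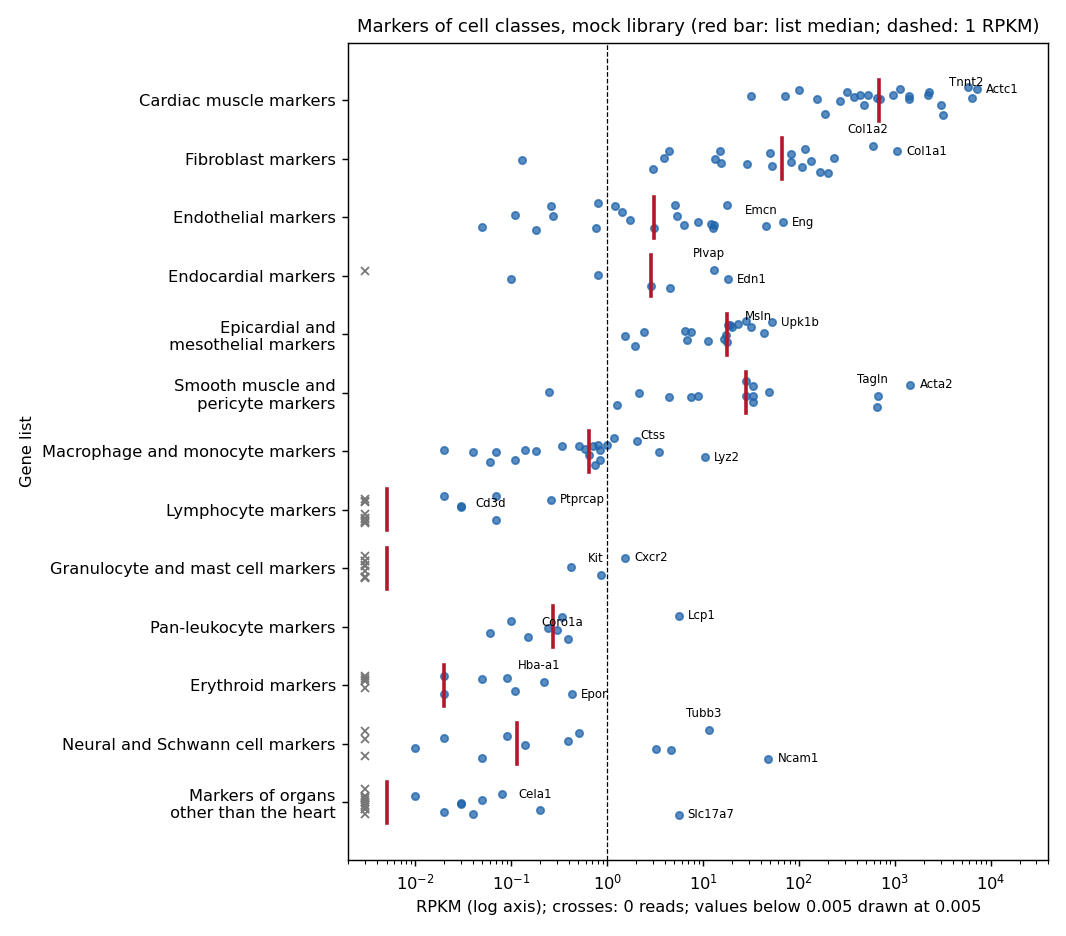
Levels of the markers of 13 lists in the mock library, in RPKM on a logarithmic axis; each point is a gene, each cross a gene with 0 reads, and the red bar is the median of the list. Cardiac muscle markers have the highest median, 677.7 RPKM, fibroblast markers 66.8, epicardial markers 17.7 and endothelial markers 3.11, while the medians of lymphocyte, granulocyte and other-organ lists are 0.

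Thick-filament genes showed which myosins the cells made. Beside Myh6, the beta-myosin heavy chain Myh7, the slow myosin of the fetal mouse ventricle, had 1394 RPKM on 267053 reads. This made 30.3% of the summed RPKM of the pair, but 19.2% of the reads of Myh7 were placed uniquely. When the 215667 shared reads of Myh7 were given to Myh6 instead, the share of Myh7 was 5.83%. With the highest record of each gene it was 37.6%. That setting drops the second record of Myh6, with 27.6% of its reads, so it can only raise the share of Myh7. With uniquely placed reads only the order was reversed, at 98.5% for Myh7, where the 2 records of Myh6 held 809 unique reads between them. These values do not bound the share, since the shared reads of Myh6 were not reassigned. The skeletal myosins Myh1, Myh8, Myh2, Myh3 and Myh4 had at most 1.91 RPKM. Mybpc3 stood at 954.5 RPKM, while Mybpc2, its fast skeletal relative, had 3.97 RPKM and Mybpc1, the slow skeletal form, 0 reads, which allows up to 0.0237 RPKM. Myom1, myomesin, had 184.8 RPKM, Myom2 152.3 RPKM, and Myl9, the light chain of smooth and non-muscle myosin, 690.2 RPKM.

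Light chains were mostly of the ventricular type. Myl7, the atrial regulatory light chain, had 121.7 RPKM against 5768 RPKM of Myl2, 2.07% of the pair (1.98 to 2.15). Myl4, the essential light chain of atrium and fetal ventricle, held a larger part, with 639 RPKM against 2241 RPKM of Myl3, 22.2% of the pair (21.9 to 22.5). All 4 genes have 1 record and all of their reads were placed uniquely. So Myl4 held a larger share of its pair than Myl7 held of its own. Their intervals did not overlap but cover counting error only, and Myl4 is not restricted to the atrium.

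In the thin filament the fetal isoform was in the minority for both troponin I and actin. Tnni1, the slow skeletal troponin I of the fetal heart, had 694.1 RPKM on 23836 reads against 1402 RPKM on 37869 reads for Tnni3, 33.1% of the pair (32.8 to 33.5). With uniquely placed reads only, of which Tnni1 had 6.53% in 2 records, its share was 3.13%. Acta1, skeletal alpha-actin, had 54.4 RPKM, 0.76% of its sum with Actc1 (0.73 to 0.79), and 96.7% of its reads were unique. Troponin T came from Tnnt2, with 30.4 RPKM for the slow skeletal Tnnt1 and 0.95 RPKM for the fast skeletal Tnnt3, and troponin C from Tnnc1, with 3 reads for the skeletal Tnnc2. Tpm4, a non-muscle tropomyosin, had 290.7 RPKM and Tpm2, beta-tropomyosin, 71.6 RPKM. Splice forms could not be compared. Of the 10 records of Tnnt2, 1 had 2 unique reads and received 23.4% of the reads, and the other 9 had 0 unique reads and between 7.9% and 9.3% each.

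Of 30 genes of the Z-disc and intercalated disc 27 reached 1 RPKM and 17 reached 100 RPKM. After Ankrd1 the highest were Actn2, sarcomeric alpha-actinin (702.4 RPKM), Des (651 RPKM), Fhl2, a LIM-domain protein (627.5 RPKM), Cryab, a small heat shock protein that protects desmin (505.1 RPKM), Csrp3, muscle LIM protein (472.8 RPKM), and Pdlim5, an adaptor of the Z-disc (447 RPKM). Junction genes were lower, with Vcl, vinculin, at 177.6 RPKM, Cdh2, N-cadherin, at 161.2 RPKM, Pkp2, plakophilin-2, at 145.1 RPKM and Dsp, desmoplakin, at 105.8 RPKM. Members of skeletal muscle fibres were below 1 RPKM, namely Myoz1 (0.95 RPKM), Actn3 (0.23 RPKM) and Myot (0.14 RPKM).

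**Figure D3:**
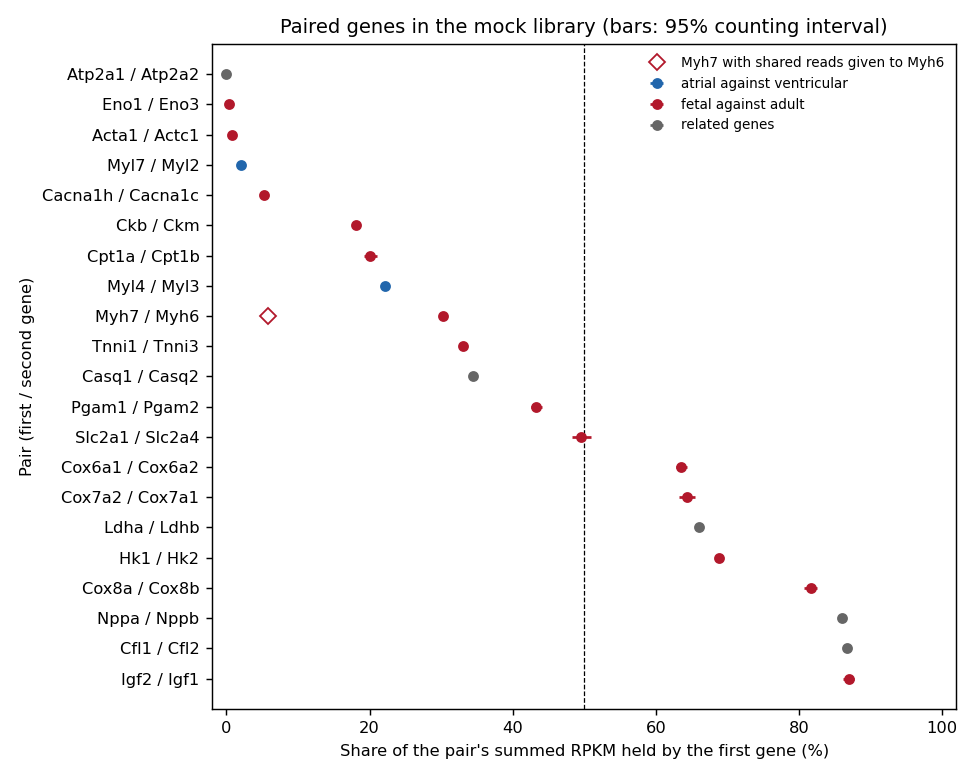
Share of the summed RPKM of 21 pairs of related genes that was held by the first gene named, in percent, with 95% counting intervals; 50% is dashed. In the contractile pairs the fetal, skeletal or atrial member lay between 0.76% (Acta1) and 33.1% (Tnni1), and the open diamond shows Myh7 at 5.83% when its shared reads are given to Myh6.

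Atrial and ventricular transcripts beyond the light chains were mixed. Nppa, made in the atria of adults and also in fetal ventricles, stood at 2282 RPKM and its relative Nppb at 371.8 RPKM, so that Nppa made 86.0% of their sum (85.7 to 86.2). Pam, the enzyme that amidates peptides in atrial granules, had 289 RPKM. Markers found in adult atria or in the conduction system were lower: Sln, sarcolipin, had 9.49 RPKM, Gja5, connexin 40, 10.4 RPKM, Mybphl 1.92 RPKM, and Kcna5, an atrial potassium channel, 3 reads and 0.03 RPKM. Among factors in the ventricular list Hopx, a homeodomain cofactor, had 172 RPKM, Irx3 49.4 RPKM, Irx4 12.2 RPKM and Hey2 3.79 RPKM. Whether these factors were restricted to ventricular cells was not tested. Of the enzymes that process natriuretic peptides, Furin had 55.2 RPKM and Corin 7.75 RPKM. Of their receptors Npr2 had 9.25 RPKM and Npr1, the receptor of Nppa, 0.59 RPKM, and the peptide gene Nppc had 0 reads, which allows up to 0.091 RPKM.

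The calcium cycling genes of heart muscle were abundant. Beside Atp2a2, Pln, phospholamban, which restrains that pump, had 653.1 RPKM. Casq2, cardiac calsequestrin, had 482.5 RPKM and Casq1, the skeletal form, 253.9 RPKM, 34.5% of the pair (34.1 to 34.9) with all reads unique. Ryr2, the cardiac calcium release channel, had 100.04 RPKM on 53214 reads, while Ryr3 had 0.14 RPKM and Ryr1 1 read. Atp2a1, the skeletal pump, had 6 reads. Jph2, junctophilin of the dyad, had 127.2 RPKM, S100a1, a calcium sensor that acts on the pump, 231.3 RPKM, Fkbp1a, a partner of the release channel, 223.6 RPKM, and Slc8a1, the sodium/calcium exchanger, 71.6 RPKM. Of 38 members found, 32 reached 1 RPKM and 10 reached 100 RPKM.

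Ion channel genes were far lower, and each family was led by a few members. Among 18 sodium channel genes 3 reached 1 RPKM. Scn10a, the channel Nav1.8, was one of them, with 3.76 RPKM. Scn8a, Scnn1b and Scnn1g had 0 reads. Among 22 calcium channel genes 9 reached 1 RPKM, near the 45.3% of all genes. The T-type pore subunit Cacna1g, with 30.9 RPKM on 8031 reads, stood beside the L-type pore subunit Cacna1c, with 28.0 RPKM on 7333 reads, whereas the other T-type gene, Cacna1h, had 1.56 RPKM. The accessory subunits were led by Cacnb2 with 36.5 RPKM, Cacnb3 with 24.4 RPKM and Cacna2d1 with 19.3 RPKM, and Cacna2d4 had 0 reads.

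Among 45 voltage-gated potassium channel genes 9 reached 1 RPKM and 6 had 0 reads. Kcng2, a modifier subunit, had 58.2 RPKM, Kcnh2, the ERG channel of the rapid delayed rectifier current, 39.5 RPKM, and Kcnq1 and Kcne1, the subunits of the slow current, 18.6 and 17.1 RPKM. The channels of the transient outward current of the adult mouse ventricle were lower, with 0.50 RPKM for Kcnd2, 0.15 RPKM for Kcnd3 and 3.49 RPKM for their partner Kcnip2, beside 2.92 RPKM for Kcna4. Among 40 other potassium channel genes 13 reached 1 RPKM, below the 45.3% of all genes. The ATP-sensitive channel was represented by Abcc9 (28.0 RPKM), Kcnj11 (14.5 RPKM) and Abcc8 (4.98 RPKM). Of the inward rectifiers, Kcnj12 had 6.25 RPKM and Kcnj2 2.14 RPKM, and of the subunits of the acetylcholine-gated channel, Kcnj5 had 16.6 RPKM and Kcnj3 0.87 RPKM.

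Pacemaker channels were detected, with Hcn4 at 5.73 RPKM (5.31 to 6.18), Hcn2 at 4.29 RPKM and Hcn3 at 0.11 RPKM. The highest genes of their list were Clic4 and Clic1, intracellular chloride channel proteins, with 182.8 and 150.5 RPKM, followed by Clic5 with 29.3 RPKM. Trpm7, a channel with a kinase domain, had 21.7 RPKM, Piezo1, a mechanosensitive channel listed as Fam38a, 21.5 RPKM, and Piezo2, listed as Fam38b, 4.68 RPKM. Gja1, connexin 43 of the ventricular gap junction, held 82.8% of the summed RPKM of 23 connexins and pannexins with 410.8 RPKM. Gjc1, connexin 45, had 40.5 RPKM, Gja3 15.7 RPKM and Gja4 10.7 RPKM, and 6 members had 0 reads. Of the sodium pump, the beta subunit Atp1b1 had 269 RPKM and the regulator Fxyd1, phospholemman, 245.5 RPKM.

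**Figure D4:**
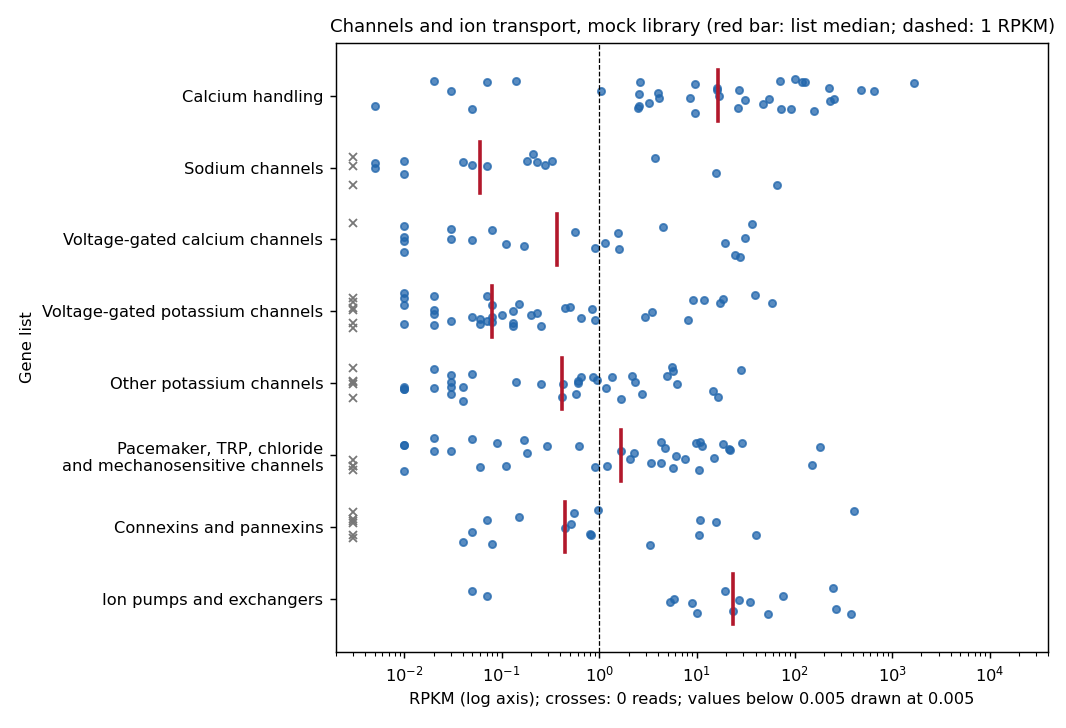
Levels of genes for calcium handling, ion channels, connexins and pumps in the mock library, in RPKM on a logarithmic axis, with 1 point per gene, crosses for 0 reads and a red bar at the median of each list. Medians are 16.4 RPKM for calcium handling and 23.6 for pumps, and between 0.06 (sodium channels) and 1.67 RPKM for the channel families.

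Few receptors for amines and adenosine reached 1 RPKM. Of 25 such genes, which include serotonin, dopamine and histamine receptors, 5 did, against 45.3% of all genes. Chrm2, the M2 muscarinic receptor that slows the heart, led with 41.6 RPKM (40.0 to 43.2), followed by Adrb1, the beta-1 adrenergic receptor, with 18.4 RPKM (17.5 to 19.4), and Adora1, the A1 adenosine receptor, with 11.9 RPKM. Adra1b had 5.74 RPKM and Adra1d 2.57 RPKM. Adrb3 stood at 0.11 RPKM, and Adra1a, Adra2c and Chrm5 had 0 reads, with upper limits of 0.0229, 0.0295 and 0.0543 RPKM.

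Of 41 receptors for peptides and lipid mediators 21 reached 1 RPKM and 5 reached 10 RPKM. Over all genes these shares were 45.3% and 22.4%, so the list was near the first and below the second. F2r, the thrombin receptor PAR1, was highest with 82.5 RPKM, then the sphingosine-1-phosphate receptor S1pr1 with 36.6 RPKM and Ramp1, a partner of the calcitonin-like receptor, with 25.1 RPKM. Ptger1 (13.9 RPKM) is uncertain, with 31.6% of reads unique. Ednra, the endothelin A receptor, had 6.90 RPKM against 0.37 RPKM for Ednrb. Of the angiotensin receptors Agtr1a had 2.24 RPKM, Agtr2 1 read and Agtr1b 0 reads, and the apelin receptor Aplnr also had 0 reads, which allows up to 0.0265 RPKM.

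Growth factor receptors were broader, with 30 of 39 genes at 1 RPKM and 17 at 10 RPKM. Axl, the receptor of Gas6, had 135.3 RPKM, Ddr1, a collagen receptor, 120.6 RPKM, and Nrp1, a co-receptor for VEGF and semaphorins, 70.4 RPKM. The receptors of insulin and of insulin-like growth factors stood close to each other, Insr at 20.0 RPKM and Igf1r at 17.3 RPKM, with Igf2r, which clears IGF2, at 49.0 RPKM. Of the neuregulin receptors Erbb2 had 16.6 RPKM, Erbb4 3.10 RPKM and Erbb3 1.89 RPKM. Among TGF-beta and BMP receptors Bmpr1a had 47.5 RPKM, Bmpr2 22.9 RPKM, Acvr1 17.9 RPKM and Tgfbr2 11.7 RPKM.

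Of 46 cytokine and innate immune receptors 26 reached 1 RPKM, against 45.3% of all genes. Tnfrsf12a, the TWEAK receptor Fn14, led with 204.4 RPKM, followed by Ifngr2 with 92.0 RPKM, Il6st, the shared chain gp130 of the interleukin-6 family, with 63.3 RPKM, and Ghr, the growth hormone receptor, with 63.2 RPKM. Osmr, the oncostatin M receptor, had 15.1 RPKM, Lifr 5.53 RPKM and Il6ra 0.36 RPKM, so gp130 was far above the ligand-binding chain for interleukin-6. Tlr4 had 6.46 RPKM and the other toll-like receptors at most 2.83 RPKM. Cxcr4 had 0.40 RPKM, and Cxcr1 and Cxcr3 had 0 reads. Of Wnt and Notch receptors, Fzd2 had 31.6 RPKM, Smo, of the hedgehog pathway, 17.4 RPKM, Notch2 8.06 RPKM and Notch1 3.90 RPKM.

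Nuclear receptors were led by Esrra, a regulator of mitochondrial genes, with 33.7 RPKM, Thra, a thyroid hormone receptor, with 25.3 RPKM, and Nr3c1, the glucocorticoid receptor, with 25.1 RPKM. The second thyroid hormone receptor, Thrb, had 1.12 RPKM. Ppard had 8.57 RPKM, Ppara 3.12 RPKM and Pparg 1.28 RPKM. The mineralocorticoid receptor Nr3c2 had 0.87 RPKM and the estrogen receptor Esr1 0.05 RPKM. Of 34 members 23 reached 1 RPKM and 10 reached 10 RPKM, against 45.3% and 22.4% of all genes.

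**Figure D5:**
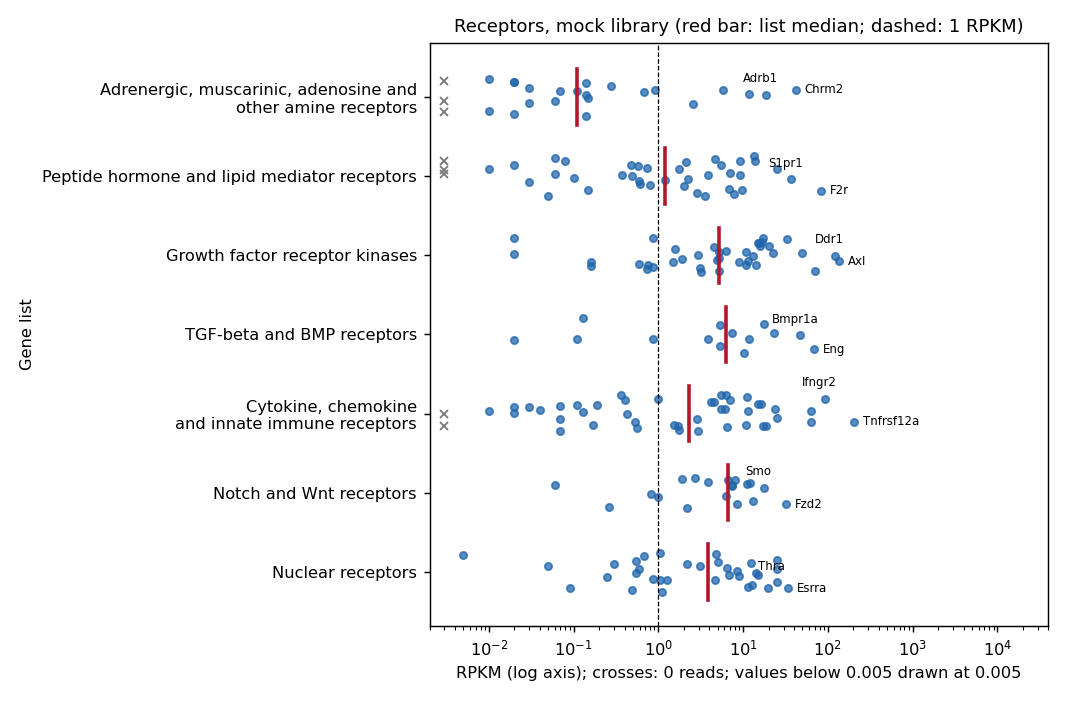
Levels of receptor genes by family in the mock library, in RPKM on a logarithmic axis, with 1 point per gene, crosses for 0 reads and a red bar at the median of each list. Growth factor receptor kinases (median 5.23 RPKM), TGF-beta and BMP receptors (6.32) and Notch and Wnt receptors (6.65) lie above the amine receptors, whose median is 0.11 RPKM.

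Transcription factors of the heart were measured at moderate levels. Of 42 factors 36 reached 1 RPKM, with a median of 10.4 RPKM. Beside Hopx, the highest were Tbx20, a T-box factor of cardiomyocytes, with 130.5 RPKM, Gata4 with 91.6 RPKM, Nkx2-5, Mef2a with 63.5 RPKM, Irx3, Tead1, a partner of the Hippo effector YAP, with 46.9 RPKM, and Srf, serum response factor, with 36.7 RPKM. Gata6 had 35.6 RPKM and Myocd, myocardin, the co-activator of Srf, 33.3 RPKM. Hand2 stood at 31.8 RPKM and Hand1 at 1.17 RPKM. The progenitor factor Isl1 had 1 read, and so did the outflow tract factor Tbx1.

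Metabolic isoform pairs fell on both sides. In 3 pairs of cytochrome c oxidase subunits the ubiquitous form was higher than the heart form, with 63.6% for Cox6a1 against Cox6a2 (473.7 and 271.4 RPKM), 64.4% for Cox7a2 against Cox7a1 (289.7 and 160.3 RPKM), and 81.6% for Cox8a against Cox8b. The last is uncertain, since 4.01% of the reads of Cox8a were unique and its share with unique reads only was 15.1%. Creatine kinase was mostly of the muscle form, with Ckm at 433.5 RPKM and the brain form Ckb at 95.6 RPKM, 18.1% of the pair. The glucose transporters Slc2a1, the basal GLUT1, and Slc2a4, the insulin-responsive GLUT4, had 33.4 and 33.9 RPKM, and the share of Slc2a1, 49.6%, had an interval of 48.3 to 50.9 that includes 50%. Hk1, the hexokinase of the fetal heart, had 112 RPKM and Hk2 50.6 RPKM. Uniquely placed reads, 3.56% of those of Hk1, gave Hk1 7.29% of the pair, which is not informative because Hk1 has 2 records. Pgam1, the brain form of phosphoglycerate mutase, had 167.4 RPKM and the muscle form Pgam2 219.4 RPKM. Cpt1b, the muscle gate of fatty acids into mitochondria, had 47.7 RPKM and the liver form Cpt1a 12 RPKM, but 6.62% of the reads of Cpt1b were unique, and with unique reads only Cpt1a held 79.2%. Enolase cannot be compared, because Eno1 had 100 reads, none of them unique.

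Of 40 genes of glucose and lactate metabolism 34 reached 1 RPKM and 15 reached 100 RPKM. Aldoa, aldolase, had 942 RPKM, Ldha, lactate dehydrogenase A, 677.9 RPKM, Pkm, pyruvate kinase, listed as Pkm2, 644.6 RPKM, Pgk1 526.9 RPKM, and Ldhb, the heart-type lactate dehydrogenase, 347.8 RPKM. With unique reads only, 3.57% of those of Ldha, Ldha held 9.84% of its sum with Ldhb, which is not informative because Ldha has 2 records. Both the brain and the muscle glycogen phosphorylase, Pygb and Pygm, were high, at 269.7 and 217.9 RPKM. Of 41 genes of fatty acid and energy metabolism 35 reached 1 RPKM. Mb, myoglobin, had 1124 RPKM, Fabp3, the heart fatty acid binding protein, 578.8 RPKM, Acadl, a dehydrogenase of long-chain acyl-CoA, 233.2 RPKM, and Lpl, lipoprotein lipase, 160.1 RPKM. Enzymes of fatty acid oxidation in the list included Hadhb with 129.8 RPKM, Acadm with 112 RPKM, Acaa2 with 106.7 RPKM, Hadha with 102.3 RPKM and Acadvl with 82.1 RPKM. Among the lower members, Pdk4, a kinase that restrains pyruvate use, had 9.68 RPKM, Plin5, a lipid droplet protein, 0.18 RPKM and Ucp3, a mitochondrial carrier, 0.05 RPKM.

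Genes of growth around birth were led by Igfbp7, a binding protein of insulin-like growth factors, with 444.7 RPKM, and Grb10, an imprinted adaptor that restrains insulin signalling, with 190.5 RPKM. Igf2, the fetal growth factor, had 44.4 RPKM against 6.66 RPKM for Igf1, 87.0% of the pair (86.1 to 87.7), and H19, the noncoding RNA beside Igf2, had 30.9 RPKM. The imprinted genes Plagl1, Mest, Peg3 and Meg3 had 48.3, 34.4, 23.7 and 21.2 RPKM. The fetal RNA-binding proteins Lin28b and Lin28a had 0.10 RPKM and 0 reads, while Hmga2, a chromatin protein of fetal tissue, had 17.1 RPKM.

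All 24 genes of the proliferation list reached 1 RPKM and 18 reached 10 RPKM, against 45.3% and 22.4% of all genes. The list also holds the cell-cycle inhibitors Cdkn1a, Cdkn1b and Cdkn2a. Ccnd2, a D-type cyclin, was highest with 98.4 RPKM, and the cell-cycle inhibitor Cdkn1a had 89.7 RPKM. Pcna, the sliding clamp of DNA replication, had 63.1 RPKM, Top2a, topoisomerase II of dividing cells, 23.1 RPKM, Rrm2, a ribonucleotide reductase subunit, 22.8 RPKM, Mki67, the proliferation antigen, 14.9 RPKM, and Cdk1 14.2 RPKM. Ccnb1 (19.2 RPKM) is uncertain, with 28.1% of reads unique. Which cell type made these transcripts was not tested.

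Matrix transcripts were abundant, with 46 of 48 genes at 1 RPKM and 19 at 100 RPKM. After Sparc and Col1a1, high members were Ccn2, connective tissue growth factor, listed as Ctgf, with 853 RPKM, Bgn, biglycan, with 781.7 RPKM, Thbs1, thrombospondin-1, with 608.6 RPKM, and Fn1, fibronectin, with 596.2 RPKM. The basement membrane chains Col4a1 and Col4a2 had 546 and 413.3 RPKM, and Ccn1, listed as Cyr61, 201.4 RPKM. By reads the list held 4.68% of the library, against 7.44% for the cardiac muscle markers, and 2.32% of the summed RPKM.

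Stress and inflammation genes were mixed. The small heat shock proteins Hspb7 and Hspb1 stood at 544.2 and 264.4 RPKM. The interferon-stimulated genes Isg15, Ifit1 and Irf7 had 95.5, 50.9 and 39.9 RPKM, and the chemokines Cxcl12, a stromal factor, and Ccl2, which attracts monocytes, 47.6 and 29.0 RPKM. Hmox1, heme oxygenase-1, had 46.3 RPKM and Il6 2.44 RPKM. Tnf had 1 read, and Il1b, Cxcl2 and Nos2 had 0 reads, with upper limits of 0.0714 RPKM for Il1b and 0.0238 RPKM for Nos2.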

How the data were processed

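RNA of mock-transfected cells was sequenced after the TruSeq RNA kit, per the labels' protocols. Per the file headers, the authors deposited for each of 36065 RefSeq records its length, uniquely placed and total read counts, and RPKM. A recomputation from total counts differed from the deposited RPKM by at most 0.005. CASAVA 1.8 and mm8 are named in the submitters' processing notes with no role; which program placed the reads, and how it divided shared ones, is not given in the sources used.

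Symbols were read from the feature identifiers, and RPKM and total reads were summed per symbol, for 27207 genes in all (6249 of which had several records). Whether counting used strand is not stated, so overlapping and antisense genes cannot be told apart. A gene with 1 record and under 50% unique reads was called uncertain; in genes with several records the records share reads, so that share is not informative. A count of 0 was given the limit of 3 reads on the longest record. Intervals are exact Poisson for levels and Clopper-Pearson for pairs. Pair shares are those of summed RPKM.

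With 1 library no test was possible. Named were the 25 highest genes without rRNA, up to 8 highest members per list, members at 100 RPKM or above or at 0 reads, and both genes of each pair; further members were named after their values were seen. The members and lists were chosen with earlier results of these data known. Alternatives changed the reads used, the summing of records, the symbols (27926 records, 77.4%, matched by accession to the GRCm38.p6 table), the scaling and the RPKM threshold. Functions were tested on simulated data. Calculations used Python 3.11.15, numpy 2.4.6, pandas 2.3.3, scipy 1.17.1 and matplotlib 3.10.9. A few list members are counted in their lists but not reported here by name.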

Additional observations from a re-analysis of the deposited data

How the results depend on the processing

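Levels here rest on 1 library, so depth limits low genes and nothing measures variation between cultures. No paired analysis was possible because each group has 1 library and 1 group is described. Summed RPKM of the cardiac, fibroblast, endothelial, epicardial, smooth muscle and macrophage lists was 39158, 2960.2, 205.4, 325.5, 2999 and 24.8. With uniquely placed reads only it was 25667, 2602, 69.6, 312.7, 2523 and 22.9, which by construction drops genes with several records. Without the highest member it was 32048, 1895, 136.7, 273.2, 1545 and 14.3. On a transcripts-per-million scale it was 87962, 6649.7, 461.4, 731.2, 6736 and 55.6. The highest record alone gave 33123 (cardiac), 2868 (fibroblast), 163.1 (endothelial) and 2973 (smooth muscle), and the longest record 38837 (cardiac). Without rRNA reads in the total it was 39479 (cardiac), 2984 (fibroblast) and 3023 (smooth muscle). Members with a single record and mostly unique reads, an alternative chosen after seeing the data, gave 25377, 2599, 66.4, 314.5 and 2867 for the first 5 lists. Under each of these alternatives the cardiac sum was the highest and the macrophage sum the lowest of the 6.

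For the pairs, uniquely placed reads gave 98.5% for Myh7 against Myh6, the opposite order, and 3.13% for Tnni1, again because Myh6 and Tnni1 have several records. The highest record gave 37.6% for Myh7, and giving its shared reads to Myh6, chosen after seeing the data, 5.83%. By construction the former can only raise the share of Myh7 and the latter only lower it. Uniquely placed reads gave 42.6% for Slc2a1 and also reversed Hk1 (7.29%), Cpt1a (79.2%), Cox8a (15.1%) and Ldha (9.84%) against their partners. Hk1 and Ldha have 2 records each, so their unique reads are not informative. Their highest record, which also counts shared reads, gave 68.5% and 65.9%. Cpt1b and Cox8a have 1 record, so the orders of their pairs rest on shared reads. The shares of Acta1, Myl7 and Myl4 stayed within their counting intervals under the alternatives run. Genes at 1 RPKM or above numbered 12336, against 9824 with uniquely placed reads only and 12349 with current symbols. At thresholds of 0.5 and 2 RPKM the counts were 13518 and 11024. Current symbols moved none of the 6 sums.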

Other observations

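Housekeeping families were grouped by symbol after the data were seen, and their shares of the summed RPKM were larger than their shares of the reads. The 69 cytosolic ribosomal protein genes held 5.10% of the summed RPKM and 1.8% of the reads, with a median of 308.9 RPKM. Among nuclear genes of oxidative phosphorylation, 17 ATP synthase genes held 1.91%, led by Atp5b and by Atp5g3 (1150.2 RPKM). The 37 genes with complex I symbols (Nduf) held 1.38%, the highest being Ndufa4 (577.1 RPKM) and then Ndufb9 (351.4 RPKM). The 19 genes with cytochrome c oxidase symbols held 1.27%, led by Cox4i1 (936.5 RPKM). The 8 genes with complex III symbols held 0.597%, led by Uqcrh (474.2 RPKM). By reads, these 4 families held 1.02%, 1.38% of the summed RPKM for complex I being 0.492% of the reads, then 0.368% and 0.222%. A symbol alone does not place a product in a complex, and this holds for Ndufa4.

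Of 26 integrin genes 15 reached 1 RPKM, against 45.3% of all genes. Itgb1, the beta-1 chain shared by most matrix receptors, had 441.5 RPKM, Itgb5 100.2 RPKM, the fibronectin receptor chain Itga5 93.3 RPKM and the laminin receptor chain Itga7 of muscle 57.1 RPKM. Of 1112 olfactory receptor genes 3 reached 1 RPKM, Olfr613 with 3.40 RPKM, Olfr78 with 1.98 RPKM and Olfr1033 with 1.67 RPKM. Of 47 keratin genes 8 did, among them Krt7 with 21.9 RPKM.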
